A study of Homo sapiens with 10 samples.

Results

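The γH2AX response of K562 cells was set against that of HepG2 cells 1 h after ionising radiation, window by window along the genome. The comparison uses 7 of the 10 libraries of the series. They are γH2AX in irradiated K562 (n = 2), untreated H2AX in K562 (n = 2), γH2AX in irradiated HepG2 (n = 1) and untreated H2AX in HepG2 (n = 2). Cells of both lines were irradiated with 6 Gy (cobalt source) and harvested after 1 h of recovery. K562 is a human leukaemia line with erythroid features, and HepG2 is a human hepatocellular carcinoma line. The response of a line is its γH2AX level over its own H2AX level, as log2, and the difference is the K562 response minus the HepG2 response. A positive difference means that γH2AX stood higher over H2AX in K562 than it did in HepG2.

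H2AX is a variant of the core histone H2A. Kinases of the damage response, ATM foremost, phosphorylate its tail in the chromatin around a double-strand break, and the phosphorylated form, γH2AX, spreads along the chromosome and recruits repair factors. CUT&RUN maps such a mark by tethering a nuclease to the bound antibody and sequencing the DNA it releases. Both γH2AX groups were made with the same mouse monoclonal antibody. The antibody label of the untreated libraries names histone H4 although their titles name H2AX, so they serve here as the chromatin background of each line whichever histone was bound. No unirradiated γH2AX library was analysed here, so the response holds irradiation and antibody together, and in either line these cannot be told apart. Every level is read depth relative to the mean of its own library. The values therefore show where the mark lay, not how much of it there was.

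Mean depth per base was 1.44 and 1.78 in the K562 γH2AX libraries, 0.672 and 0.671 in K562 H2AX, 0.521 in HepG2 γH2AX, and 0.624 and 0.641 in HepG2 H2AX. Thinly covered bins fell mostly on multiples of 60 bp in the K562 γH2AX libraries and of 41 bp in the other 5, and these steps were read as the length of a sequenced read. If so, the average 100-kb window held from 1272 reads in HepG2 γH2AX to 2971 in K562 γH2AX replicate 2, and counting error was 0.026 to 0.040 on the log2 scale in all 7. The step itself differs between the K562 γH2AX libraries and the rest, so whatever it reflects cannot be told apart from cell line in the difference between the lines. The HepG2 γH2AX library is single, and whatever is particular to it enters every window.

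The cell line labels were checked by copy number. In 90 windows, 88 of them on chromosome 9, K562 H2AX was at most 0.1 and HepG2 H2AX at least 0.5 of the library mean. There the median γH2AX level was 0.00359 and 0.00435 in the K562 libraries and 1.08 in HepG2. In 81 windows on chromosomes 22, 13 and 9, the H2AX level of K562 was 3 times that of HepG2 or more, and the median γH2AX level there was 3.96 and 4.47 in K562 and 0.790 in HepG2. Each γH2AX library therefore carried the copy number pattern of the line it is labelled with.

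γH2AX was distributed far less evenly over H2AX in the K562 libraries than in the single HepG2 library. Between the 5th and 95th percentiles, responses spanned -1.35 to 0.79 in K562 and -0.33 to 0.26 in HepG2. The SD over windows was 0.70 in K562 and 0.18 in HepG2, 3.85-fold apart. The difference between the lines ran from -1.28 to 0.93. The HepG2 response had a width of 0.59 between these percentiles, which was 1.995 times that of the HepG2 H2AX replicates against each other but below the 0.956 of the K562 γH2AX replicates against each other. HepG2 γH2AX has no replicate of its own to set beside it. Over windows, γH2AX and H2AX levels had a Spearman's rho of 0.82 in HepG2 and 0.49 in K562. How strongly the mark was enriched in the single HepG2 library cannot be told apart from cell line here. The K562 replicates differed in amplitude, with an SD of 0.82 for replicate 2 over H2AX replicate 2 and 0.59 for replicate 1 over H2AX replicate 1, and both lay far above the HepG2 value.

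The shape of the 2 distributions differed as well. In K562 the windows formed a main mode above H2AX, with 21.0% of them at a response between 0.2 and 0.4, and a lower mode with 7.95% between -1.2 and -1. Between the modes the share sank to 5.07% of windows from -0.8 to -0.6. HepG2 windows formed a single mode close to 0.

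**Figure D1:**
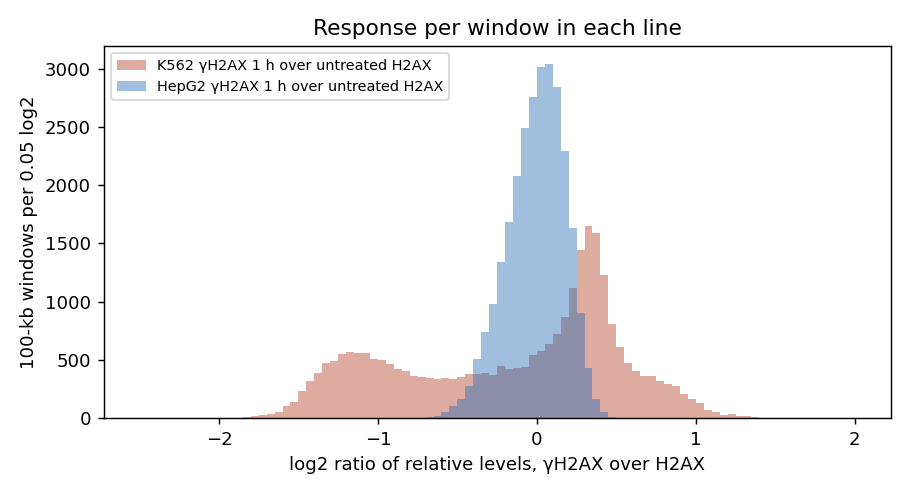
Number of 100-kb windows (vertical axis) by log2 ratio of γH2AX over untreated H2AX (horizontal axis, bins of 0.05) in K562 and HepG2. K562 windows form a mode above 0 and a second, lower mode near -1.1, whereas HepG2 windows lie in 1 narrow mode.

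The difference between the lines was tested in 27610 windows with limma, which fits each window and pools information on the spread across windows, in 1 fit of the 7 libraries. It passed at an adjusted p under 0.05 in 13129 windows (47.6% of those tested), 4942 higher in K562 (17.9%) and 8187 lower (29.7%). All 13129 had the same sign in each of the 8 combinations of K562 and HepG2 libraries, as did 76.9% of all windows, called or not. Under median-of-ratios scaling, which raises the median difference by 0.15, 12090 windows passed, of which 52.3% were higher in K562 rather than 37.6%. The balance of higher and lower windows therefore depends on the scaling. The smallest difference called was 0.32. Without K562 γH2AX replicate 1, 20469 windows passed, and without K562 H2AX replicate 1 or 2 the lower windows numbered 5133 and 5179.

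In most called windows the K562 response was the larger in size. It exceeded the HepG2 response in size in 12737 of the 13129 called windows (97.0%). The wider spread of K562 responses over windows favours this wherever the difference is large, and the share over all windows was not computed. In the same fit the K562 response alone passed in 19622 windows (71.1%), 9211 higher than H2AX (33.4%) and 10411 lower (37.7%). The HepG2 response alone passed limma's test in 0 (0%), with 1951 at an unadjusted p under 0.05. Its SE was 0.16 against 0.13 for K562, and its single γH2AX library was given the spread of the other groups. Without K562 γH2AX replicate 1, which shrinks the shared spread, 5288 HepG2 windows passed, and without replicate 2 5448 did. A count of 0 in HepG2 thus rests on the spread between the K562 γH2AX replicates.

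The windows with the largest positive differences lay on chromosomes 11, 12, 16, 17 and 22, and in all 10 named here HepG2 γH2AX was below its own H2AX in both pairs of libraries. A low HepG2 response helps a window to be among the 10, so its sign there is a description of the choice. The widest gap was on chromosome 17 at 27400001 to 27500000. There γH2AX was 3.06 and 4.71 times the library mean in K562 against 1.03 and 0.877 for K562 H2AX, and 0.615 in HepG2 against 0.834 and 0.775 for HepG2 H2AX. Both K562 γH2AX libraries stood clear of every other library, and the HepG2 γH2AX library was the lowest of the 7. The difference was 2.30 (SE 0.26, limma adjusted p = 0.00057) and lay between 1.84 and 2.77 over the 8 combinations of libraries.

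On chromosome 11 the window at 64600001 to 64700000 had γH2AX levels of 2.39 and 3.55 in K562 against 1.21 and 1.11 for its H2AX, and 0.509 in HepG2 against 0.926 and 0.776. This window combined a K562 response of 1.29 with the most negative HepG2 response of the 10, -0.68, for a difference of 1.97 (SE 0.25, limma adjusted p = 0.00071). A neighbouring pair on chromosome 17, from 25800001 to 26000000, had differences of 1.82 and 1.92. In the second of them γH2AX was 2.07 and 2.75 in K562 against 0.865 and 0.833 for H2AX, and 0.586 in HepG2 against 0.872 and 0.801. K562 γH2AX and HepG2 γH2AX thus departed from nearly equal H2AX levels in opposite directions. The HepG2 side is not called in any of these windows.

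The other windows of the 10 repeated this arrangement. On chromosome 12 the window from 124900001 had a difference of 1.87, with 2.72 and 3.77 in K562 γH2AX and 0.507 in HepG2 γH2AX. The window from 47000001 on chromosome 22 had 1.81, that from 72400001 on chromosome 11 had 1.76, and those from 70700001 and 81500001 on chromosome 16 had 1.78 and 1.75. The last of the 10, from 80800001 on chromosome 17, had 1.73 and lies inside the longest run described below. Genes are not assigned to these windows, because an annotation of hg19, the build of the files, was not used here.

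In the windows with the most negative differences K562 γH2AX was far below H2AX, and the HepG2 response was between -0.28 and 0.15. Of the 10 windows 7 lay on chromosome 19, which held 551 of the 27610 windows tested. Of its windows 32.7% were called lower, near the 29.7% of all windows. At 7100001 to 7200000 on that chromosome γH2AX was 0.391 and 0.268 in K562 against 1.78 and 1.69 for K562 H2AX, and 0.720 in HepG2 against 0.770 and 0.740 for HepG2 H2AX. The K562 groups did not overlap and lay several-fold apart, whereas the HepG2 libraries nearly coincided. The difference was -2.19 (SE 0.26, limma adjusted p = 0.00067), made of a K562 response of -2.25 and a HepG2 response of -0.06.

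The next on chromosome 19 were the windows from 9100001, 15000001, 7200001 and 13600001, with differences of -2.10, -2.01, -2.004 and -2.002. In the window from 15000001 the HepG2 levels were 0.833 for γH2AX and 0.838 and 0.833 for H2AX. The K562 levels there were 0.396 and 0.351 for γH2AX and 1.69 and 1.62 for H2AX. Windows from 16800001 and 13700001 on chromosome 19 had -1.86 and -1.85. Outside chromosome 19, the windows from 16600001 on chromosome 17, 1600001 on chromosome 20 and 110700001 on chromosome 6 had -1.95, -1.86 and -1.84. Over the 10 windows HepG2 γH2AX was below H2AX in both pairs of libraries in 4 and above it in both pairs in 4.

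Called windows clustered into runs. Counting adjacent called windows of 1 direction, the higher windows formed 2188 runs and the lower windows 2644. The median run was 200 kb long in both directions. Runs of at least 500 kb held 50.2% of the lower windows and 29.1% of the higher ones. Lower windows were also the more numerous, at 29.7% of all windows against 17.9%, which by itself favours longer runs. That balance depends on the scaling, and run lengths under the other scaling were not computed. The longest run of lower windows was 5.2 Mb and the longest of higher windows 2.6 Mb.

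The longest higher run spanned 78500001 to 81100000 on chromosome 17 and ended 52 kb short of the last bin of that chromosome. Averaged over its 26 windows, γH2AX was 1.75 and 2.33 in K562 against 1.18 and 1.09 for H2AX, and 0.774 in HepG2 against 1.10 and 1.01. The mean difference was 1.18, with a K562 response of 0.75 and a HepG2 response of -0.43. HepG2 was below its H2AX in each of the 26 windows (response -0.80 to -0.12). In 10-kb windows the K562 response exceeded the HepG2 response in 90.6% of the run, and in 25.3% of the 194 such windows within 2 Mb outside it, where the median K562 response was -1.24.

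The next higher runs were 73000001 to 74800000 on chromosome 17 (mean difference 1.00) and 88500001 to 90200000 on chromosome 16 (0.99), which also reaches the last bin of its chromosome. Others lay on chromosome 1 from 149900001, chromosome 10 from 75100001, chromosome 12 from 121600001, chromosome 9 from 127100001 and chromosome 3 from 46900001, with mean differences of 0.83, 0.87, 0.82, 0.81 and 0.90. In all 8 of these runs the mean K562 response was between 0.53 and 0.75 and the mean HepG2 response between -0.43 and -0.16.

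The longest lower run spanned 66800001 to 72000000 on chromosome 7, with 52 windows. K562 γH2AX averaged 0.642 and 0.459 there against 1.21 and 1.18 for H2AX, and HepG2 γH2AX averaged 0.819 against 0.747 and 0.754. The mean difference was -1.21, with a K562 response of -1.09 and a HepG2 response of 0.12. In 10-kb windows the K562 response exceeded the HepG2 response in 0.771% of the run, compared with 52.4% of those within 2 Mb outside it. The median K562 response was -1.15 inside the run and -0.12 outside it. Inside and outside were set by the calls in the same libraries, here and in the higher run, so these contrasts only describe the runs.

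Chromosome 16 held 3 of the 8 longest lower runs, from 5200001 to 7900000, 77100001 to 79800000 and 25300001 to 27200000, with mean differences of -1.39, -1.11 and -1.33. In the first of them γH2AX was 0.451 and 0.298 in K562 against 0.992 and 0.974 for H2AX, and 1.26 in HepG2 against 1.16 and 1.21. The others were on chromosome 8 from 126500001, chromosome 19 from 30600001, chromosome 20 from 57600001 and chromosome 12 from 114400001, with -1.19, -1.21, -1.12 and -1.17. Over the 8 runs the mean K562 response was -1.31 to -1.09, and the mean HepG2 response was -0.09 to 0.12. The runs were chosen by the difference, which favours low HepG2 responses in higher runs and high ones in lower runs.

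**Figure D2:**
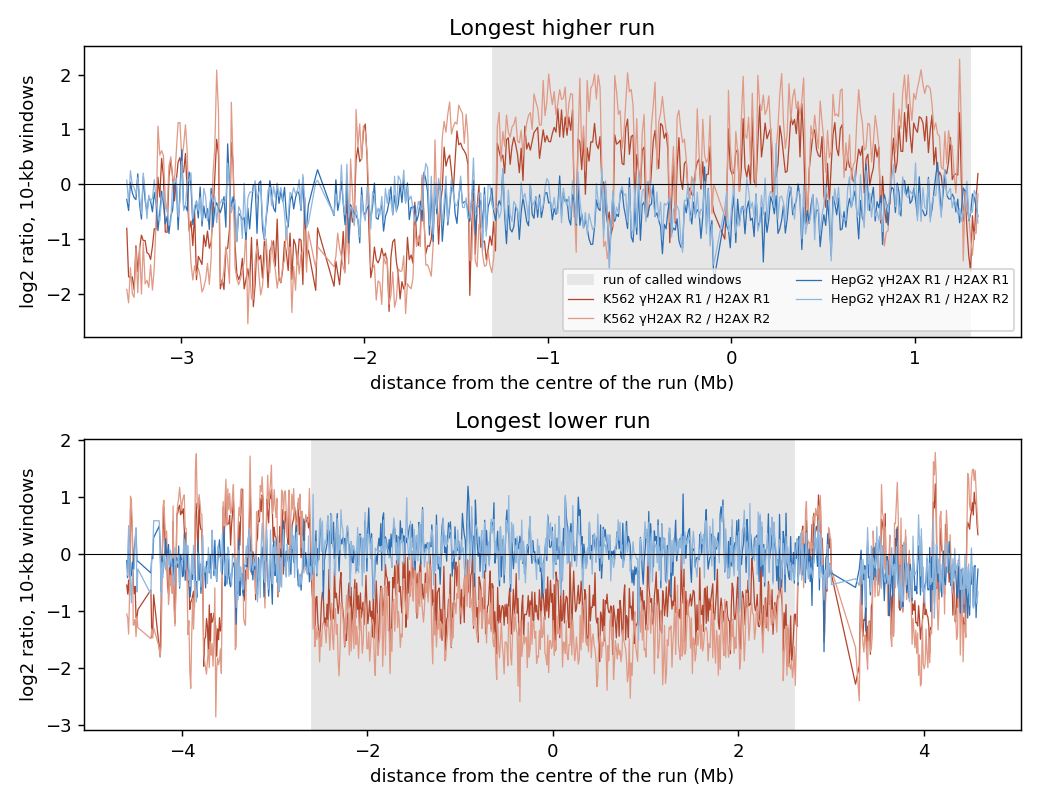
Log2 ratio of γH2AX over H2AX in 10-kb windows (vertical axis) by distance from the centre of the longest higher run and of the longest lower run (horizontal axis, Mb), with the run shaded. Each line is a pair of libraries. In the higher run the K562 lines lie mostly above 0 and the HepG2 lines mostly below it, and in the lower run the medians are -1.15 in K562 and 0.11 in HepG2.

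The measured responses of the 2 lines shared little of their pattern from window to window. Spearman's rho between the K562 and HepG2 responses was 0.16 over 27610 windows, which have no library in common between the lines. For comparison it was 0.93 between the K562 replicates, each over a different H2AX replicate. No such value exists for HepG2, whose response had an SD of 0.18 and rests on 1 γH2AX library. Noise in that library would lower rho between the lines whatever they share, so 0.16 and 0.93 have unlike ceilings. These are descriptions over neighbouring windows of the same libraries and carry no p.

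The low rho hid a curved relation. Windows were sorted into 10 equal groups by K562 replicate 1 over H2AX replicate 1, and the response was read in libraries that had not chosen them. In the top group (2761 windows) the median response was 0.85 in K562 replicate 2 and -0.05 in HepG2, and 37.2% of windows were above 0 in HepG2. In the bottom group it was -1.55 in K562 and -0.10 in HepG2, with 23.2% above 0. HepG2 reached its highest median, 0.09, in the seventh group, where the K562 median was 0.33. HepG2 γH2AX was thus lowest over H2AX at both extremes of K562 and highest at moderately positive K562 values. With the replicates exchanged, the medians were 0.67 and -0.16 in the top group for K562 and HepG2, and -1.09 and -0.09 in the bottom one.

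**Figure D3:**
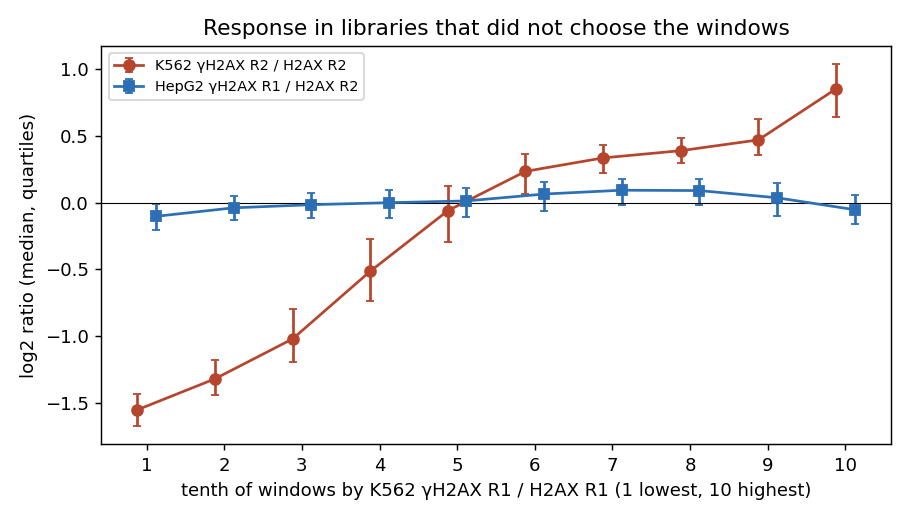
Median log2 ratio of γH2AX over H2AX (vertical axis, bars to the quartiles) in 10 equal groups of windows ordered by K562 γH2AX replicate 1 over H2AX replicate 1 (horizontal axis). K562 replicate 2 climbs over the groups to 0.85, whereas HepG2 has medians of -0.10 and -0.05 in the outermost groups and at most 0.09 between them.

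Untreated H2AX levels differed over these groups in K562. The median K562 H2AX level, read in replicate 2, was 1.12 in the bottom group, 0.777 in the eighth and 1.19 in the top one. The HepG2 H2AX level was 0.941 in the bottom group, 0.983 in the eighth and 0.994 in the top one. Across all windows the HepG2 response had a Spearman's rho of -0.51 with the K562 H2AX level, negative in 23 of 23 chromosomes (-0.70 to -0.12). With the H2AX level of HepG2 itself, read in the replicate not used for the ratio, rho was 0.05. These libraries share no sample between the lines.

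Sorted the other way, by the HepG2 response, the K562 windows differed in spread. In the lowest of 10 equal groups by HepG2 response (median -0.33) 47.0% of windows were called higher in K562 and 24.8% lower, and the K562 response had an SD of 0.82. In the highest group (median 0.26) 1.59% were called higher and 10.97% lower, and the SD was 0.38. The background was 17.9% and 29.7%. The HepG2 value is part of the difference, so a low HepG2 response raises it by construction. The SD of the K562 response does not use HepG2.

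The lines also differed in the scale of the pattern along the chromosome. Windows 1 Mb apart had a correlation of 0.17 in the K562 response and 0.52 in the HepG2 response, and at 5 Mb it was 0.04 and 0.25. Splitting each response into the mean of its megabase and the deviation from it put 42.0% of the variance at the megabase scale in K562 and 68.1% in HepG2. The local SD was 0.53 in K562 and 0.10 in HepG2, and the SD between megabases was 0.45 and 0.15. Within megabases Spearman's rho between the responses of the lines was -0.01, positive in 11 of 23 chromosomes, while the means of 2787 megabases had a rho of 0.41, positive in 17 of 23 chromosomes. With the responses computed in 1-Mb windows directly, rho was 0.28, so its size depends on how the megabase value is formed. Slow variation also separated replicates: the log2 ratio of the K562 H2AX replicates had a correlation of 0.36 at 1 Mb, with an SD between megabases of 0.08, and that of the HepG2 H2AX replicates 0.15, with 0.05. The ratio of the K562 γH2AX replicates had a correlation of 0.20 at 1 Mb. Its SD was 0.22 between megabases and 0.22 locally, both above those of the HepG2 response. The part of such variation between replicates in the HepG2 pattern was not tested.

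**Figure D4:**
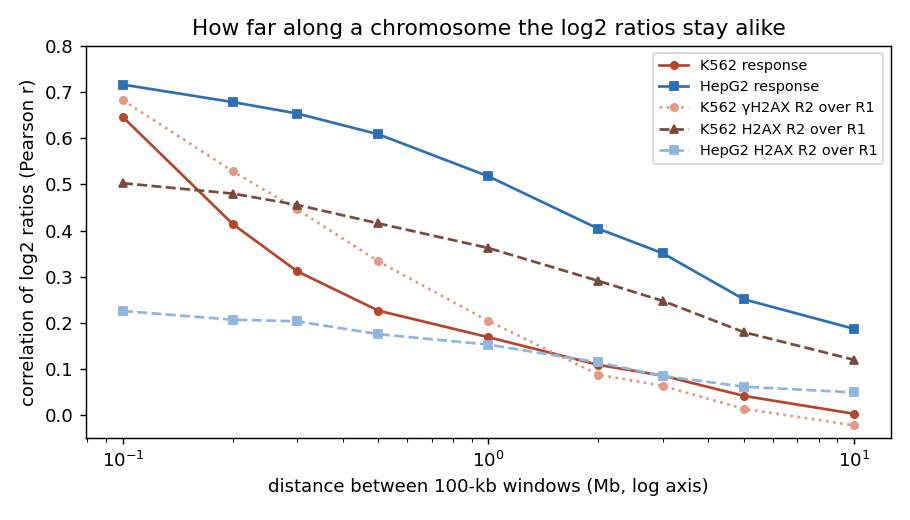
Pearson correlation of log2 ratios between 100-kb windows (vertical axis) by their distance (horizontal axis, Mb, log axis) for the responses of K562 and HepG2 and for replicates against each other. The K562 response falls to 0.17 at 1 Mb, whereas the HepG2 response is at 0.52 there and the K562 H2AX replicates at 0.36.

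By chromosome, the median difference ran from -0.31 on chromosome 20 to 0.19 on chromosome 22. It was positive in all 8 combinations of libraries on chromosomes 11, 17 and 22 and negative in all 8 on 7 chromosomes. Chromosome 22 had a difference above 0 although both lines were below their H2AX there, with a median response of -0.07 in K562 and -0.27 in HepG2. Chromosome 17 had 0.05 in K562 and -0.18 in HepG2. Of its windows 37.1% were called higher in K562, the highest share of any chromosome, and 30.8% lower. Over all windows tested these shares were 17.9% and 29.7%. On chromosome 20 the medians were -0.33 in K562 and -0.09 in HepG2, and 43.4% of windows were called lower and 20.4% higher. The X chromosome had the lowest share of windows called higher, 4.96%, with 23.55% called lower. Median-of-ratios scaling raised the difference on all 23 chromosomes, so that 18 medians rather than 12 were above 0.

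The responses also went with the gene density of the chromosome. Protein-coding genes were counted per chromosome in RefSeq and divided by the Mb of binned sequence, from 3.66 per Mb on chromosome 18 to 26.2 on chromosome 19. Over the 23 chromosomes the median HepG2 response was lower where genes were dense (Pearson's r -0.79, Spearman's rho -0.90; r -0.90 without chromosomes 17 and 19). The K562 median followed less closely (r -0.48, rho -0.41), and the median difference hardly at all (r -0.12, rho 0.05). The share of windows called higher in K562 was larger on gene-rich chromosomes (r 0.61, rho 0.87; r 0.86 without chromosomes 17 and 19), and that of windows called lower followed more loosely (r 0.24, rho 0.41; r 0.36 without chromosomes 17 and 19). A lower HepG2 response raises the difference by construction. The sign of the relation between the lines turned over with gene density: rho between their responses was 0.30 on gene-poor chromosome 13 and -0.21 on gene-rich chromosome 19, with an r of -0.79 against gene density over the 23 chromosomes. Chromosomes share their libraries, and gene density goes with base composition, whose part was not tested.

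**Figure D5:**
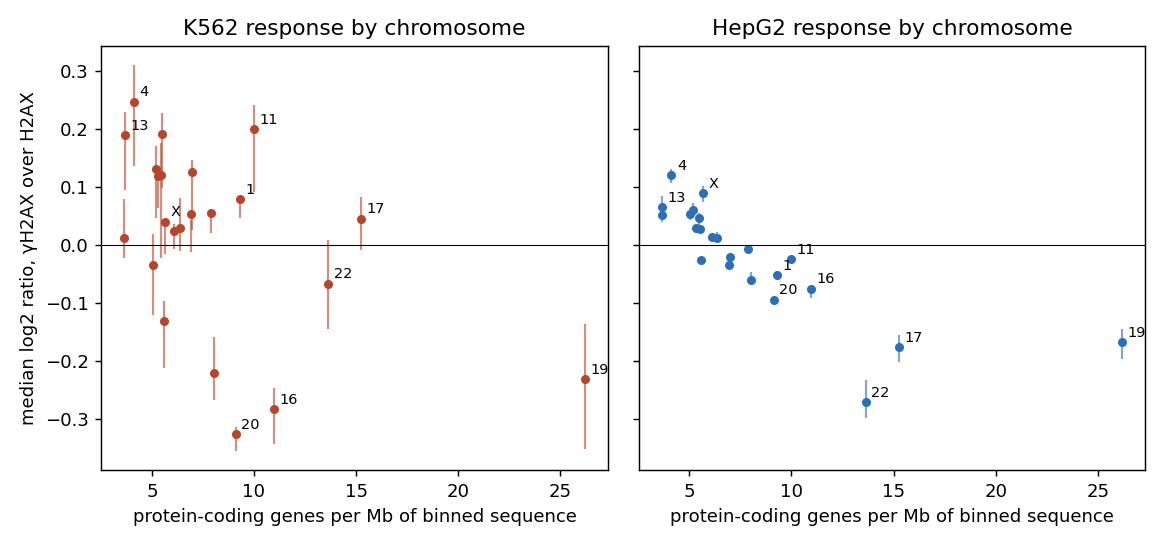
Median log2 ratio of γH2AX over H2AX per chromosome (vertical axis, lines spanning the pairs of libraries) against protein-coding genes per Mb (horizontal axis), for K562 and HepG2. HepG2 medians are lower on gene-dense chromosomes, with the lowest, -0.27, on chromosome 22, whereas K562 medians scatter between -0.33 and 0.25.

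Position along the arm gave a further contrast. Within 2 Mb of the end of the binned sequence (777 windows) the median response was -0.01 in K562 and -0.16 in HepG2. There 32.8% of windows were called higher in K562 and 29.1% lower, against 17.9% and 29.7% of all windows tested. From 2 to 5 Mb (1210 windows) the medians were -0.57 in K562 and -0.11 in HepG2. Of these windows 21.9% were called higher and 46.4% lower. Beyond 20 Mb the medians were 0.12 in K562 and 0.03 in HepG2. The step between the outermost stretch and the next was thus large in K562 and small in HepG2.

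Below the window scale, HepG2 γH2AX showed no gain at the sites where K562 had its peaks. The deposited K562 replicate 1 list has 41947 broad peaks, which touched 94078 of the 1-kb bins tested (3.42%). Their level was divided by that of the remaining bins in their own windows, at the same copy number. That local fold was 1.69 in K562 γH2AX replicate 2, which was not used to call these peaks, against 1.14 and 1.12 in K562 H2AX. In HepG2 it was 1.08 for γH2AX against 1.10 and 1.10 for H2AX. Over H2AX the peaks thus stood at 0.58 on the log2 scale in K562 and at -0.03 in HepG2, a difference of 0.61. By chromosome the fold ran from 1.59 to 2.46 in K562 γH2AX replicate 2 and from 1.02 to 1.12 in HepG2 γH2AX, without overlap. Replicate 2 peaks read in replicate 1 gave a difference of 0.64, and replicate 1 peaks with q under 0.05, 8.10% of the list, gave 0.46. The peaks of both lists were called in K562 alone, so the choice of sites favours a higher local fold in K562. Sites of HepG2 peaks were not read, and the difference in local fold was not tested.

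Windows in which both lines departed from H2AX were sorted by direction, at a response of at least 0.5 in K562 and 0.25 in HepG2. The sign had to be the same in every pair of libraries, and the HepG2 pairs share the single γH2AX library. Of 3866 windows higher in K562, 779 (20.2%) were lower in HepG2, against 10.4% of all windows, and 92 (2.38%) were higher in HepG2 too, against 5.68%. Of 8939 windows lower in K562, 1002 (11.2%) were lower in HepG2 as well and 105 (1.17%) higher. None of these windows passed the test for HepG2 alone. The chromosomes with the most windows of the first class were 17 (112 of 762 tested), 1 (87 of 2190) and 16 (60 of 768). Over all chromosomes it was 779 of 27610. Under median-of-ratios scaling the 4 classes held 1206, 227, 34 and 1256 windows in the order opposite with K562 higher, both higher, opposite with K562 lower, and both lower. The count of windows higher in both was 59 without K562 H2AX replicate 1, 210 without replicate 2, 142 without HepG2 H2AX replicate 2 and 315 without K562 γH2AX replicate 1, so it depends on single libraries. Opposite windows with K562 lower numbered 167 without HepG2 H2AX replicate 2.

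Examples of each class show how the levels lay. Among windows higher in both, 10500001 to 10600000 on chromosome 7 had γH2AX of 1.83 and 1.95 in K562 against 0.723 and 0.784 for H2AX, and 1.11 in HepG2 against 0.923 and 0.908. γH2AX was above H2AX in every pair of libraries of both lines, in K562 by 1.01 more on the log2 scale (limma adjusted p = 0.0010). At the first window of chromosome 3 the responses were 0.84 and 0.54, and the difference of 0.30 did not pass (adjusted p = 0.28). On chromosome 4 from 127800001 they were 0.89 and 0.37 (difference 0.53, adjusted p = 0.015), a call lost without K562 H2AX replicate 1 (0.057) or HepG2 H2AX replicate 1 (0.079).

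Opposite windows with K562 lower included 8800001 to 8900000 on chromosome 19, where γH2AX was 0.588 and 0.444 in K562 against 1.59 and 1.49 for H2AX, and 0.764 in HepG2 against 0.590 and 0.644. Here HepG2 γH2AX lay above both of its H2AX libraries, for a difference of -1.79. The windows from 7700001 on chromosome 16, inside the long lower run there, and 900001 on chromosome 18 had -1.78 and -1.60. Among windows lower in both, 1800001 to 1900000 on chromosome 20 had 0.317 and 0.210 in K562 against 1.21 and 1.16, and 1.40 in HepG2 against 1.83 and 1.82. γH2AX was below H2AX in both lines, further so in K562, with a difference of -1.62. The windows from 13400001 and 7200001 on chromosome 19 had K562 responses of -1.999 and -2.29 and HepG2 responses of -0.32 and -0.28.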

How the data were processed

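CUT&RUN libraries of γH2AX at 1 h and of untreated H2AX from K562 and HepG2 were compared. Per the submitters' processing notes the build was hg19, and the tools listed there without roles or settings are MACS2, SAMtools and BWA 0.7.12. The deposited tracks hold signal, the mean read coverage per base in 1-kb bins, in whole thousandths and not scaled to depth. The deposited peak lists give fold enrichment, and p-values and q-values as −log10. The control behind them was not known here, and the fold was not used.

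For windows of 100 kb, bins were averaged where a window kept at least 50% of its bins, without chromosome Y, and divided by the library mean. Windows in which H2AX averaged at least 0.25 of the mean in each line (27610 of 28063) were tested on log2(relative depth + 0.05), which understates the change of windows near 0. limma 3.58.1 in R 4.3.3 used a mean-variance trend and 4 group means (3 residual degrees of freedom), with Benjamini-Hochberg adjustment over all windows. Nothing in the labels makes the replicates separate cultures, so the p-values may measure technical spread only. The 24 h and H3K27me3 libraries and the HepG2 peak list were not used. The windows, lists and rules were chosen with earlier results of these data known. Named are the 10 highest and 10 lowest called windows (at most 2 per run), the 8 longest runs in each direction and 3 windows of each class. Gene counts per chromosome come from RefSeq for GRCh38.p14, which gave no position here. The 6 gene lists of the plan could not be placed on hg19. The fit was also run on simulated data with far fewer changed windows than were called here. It missed small changes there, and no result rests on that run. The other tools were numpy 2.4.6, scipy 1.17.1, pandas 2.3.3 and matplotlib 3.10.9 under Python 3.11.15.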

Additional observations from a re-analysis of the deposited data

Results flagged for a closer look

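The test of the difference itself separated the responses of the 2 lines in 13129 windows. Among the windows named in the report, chromosome 17 had differences of 2.30 (start 27400001), 1.92 (25900001), 1.82 (25800001) and 1.73 (80800001). Chromosome 11 had 1.97 (64600001) and 1.76 (72400001). Chromosome 16 had 1.78 (70700001) and 1.75 (81500001). Chromosome 12 had 1.87 (124900001), chromosome 22 had 1.81 (47000001), chromosome 7 had 1.01 (10500001) and chromosome 4 had 0.53 (127800001).

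Negative differences on chromosome 19 were -2.19 (7100001), -2.10 (9100001), -2.01 (15000001), -2.004 (7200001), -2.002 (13600001), -1.86 (16800001), -1.85 (13700001), -1.79 (8800001) and -1.68 (13400001). Chromosome 17 had -1.95 (16600001), and chromosome 20 had -1.86 (1600001) and -1.62 (1800001). Chromosome 6 had -1.84 (110700001), chromosome 16 had -1.78 (7700001) and chromosome 18 had -1.60 (900001).

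The local fold at K562 replicate 1 peaks was above that of H2AX in K562 and below it in HepG2 in every pair of libraries. The log2 difference of 0.61 was not tested, and sites called in K562 alone favour a higher fold there.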

How the results depend on the processing

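All 20 windows with the largest differences kept their direction and their call in the 259 comparisons with an alternative that could be made, with a highest adjusted p of 0.0108 by limma. These windows were chosen for the largest called differences in the same libraries, so the choice itself favours keeping direction and call. The filter at 0.5 of the mean dropped the window on chromosome 17 from 16600001. The count of windows differing between the lines was 12090 to 13462 under both pseudocounts, both filters, median-of-ratios scaling and no trend, and 9009 to 20469 leaving out 1 library in turn (higher 3830 to 9279, lower 5133 to 11190), where a group left with 1 library was assumed to vary as the other groups do. Windows of 50 kb gave 25809 (9263 higher, 16546 lower) of 55047, and 1-Mb windows 913 (414 and 499) of 2789, which is 46.9% and 32.7% of the windows tested. Of the reported calls 81.5% were shared under median-of-ratios scaling, with the same direction. The share of tested windows that passed for K562 alone was 71.1% at 100 kb, 68.1% at 50 kb and 67.0% at 1 Mb. K562 alone passed in 37477 windows of 50 kb and 1869 of 1 Mb, and HepG2 alone in 4 with no filter and in 0 to 5448 leaving out 1 library.

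The replicate block gave 11327 windows (4520 higher, 6807 lower), and 85.8% of the reported calls were shared with it in the same direction. Same-numbered libraries deviated together with r of 0.18 between K562 γH2AX and K562 H2AX and 0.30 between K562 and HepG2 H2AX. It was 0.03 between K562 γH2AX and HepG2 H2AX. The main fit did not take the numbers as pairs, so it leaves out whatever same-numbered libraries shared.

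In 1-Mb windows the 5th to 95th percentile width was 1.34 in K562 and 0.49 in HepG2, and rho between the lines was 0.28. Windows chosen on replicate 2 had medians of 0.67 in K562 and -0.16 in HepG2 in the top group, and -1.09 and -0.0888 in the bottom group. The HepG2 median of the bottom group was -0.0915 with a pseudocount of 0.2 and -0.13 under median-of-ratios scaling. The log2 difference at peaks was 0.60 to 0.63 leaving out 1 H2AX library, 0.64 for replicate 2 peaks and 0.46 for q under 0.05.

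Settings for the 4 classes were chosen after seeing the data. Median-of-ratios scaling gave 1206 opposite windows with K562 higher, 227 higher in both and 34 opposite with K562 lower. Leaving out 1 library gave 59 to 315 windows higher in both and 78 to 167 opposite with K562 lower. The window on chromosome 4 from 127800001 lost its call without K562 H2AX replicate 1 or HepG2 H2AX replicate 1, and the first window of chromosome 3 gained one without K562 γH2AX replicate 1 (limma adjusted p = 0.015). Alternatives for the gene lists were not run, because the lists were not placed. The causes of these shifts were not tested. Limits are the single HepG2 γH2AX library, the coverage steps, read as read length, that set the K562 γH2AX libraries apart, and levels relative to each library's mean.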
